A study of Mus musculus with 5 samples.

Results

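Dqx1, Tafa4, Sec14l5, Ppp1r27 and Btk are 5 of the 32285 genes counted, and their RNA was much lower in muscle fiber nuclei of fetuses without Cacna1s than in those of wild-type fetuses of the same age. They were selected on these values themselves, the RNA counts of both genotypes summed over the muscle fiber nuclei. That contrast is therefore given below as a description, and no test rests on it. The question asked of the data was what these RNAs look like where Cacna1s is present: whether they are found in most myonuclei or in few, whether they are tied to the nuclei under the nerve ending or to slow fibers, when they appear during muscle development, and whether the chromatin near them differs as well.

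Single-nucleus RNA and open chromatin were read together (10x Multiome, which pairs snRNA-seq with snATAC-seq in each nucleus) in hindlimb skeletal muscle dissected free of skin and bone. There were 5 libraries, 1 per group. The wild-type (WT) groups, of strain C57bl6n (C57BL/6N), were E14.5 embryos (56 hindlimbs pooled), E18.5 fetuses (14 hindlimbs), P5 pups (8 hindlimbs) and adults (4 hindlimbs). The knockout (KO) group held Cacna1s-/- fetuses at E18.5 on the same strain label (26 hindlimbs), in which a cassette inserted by the KOMP project removes coding sequence of Cacna1s in every cell and not only in muscle. Nuclei were stained for PCM1, a centriolar satellite protein that marks myonuclei, sorted into positive and negative fractions, and the fractions were mixed in equal volumes. Since each group was 1 library of pooled limbs, no difference between groups has a replicate check, whether the spread of groups overlaps cannot be seen, and every 95% interval below covers counting error only.

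A muscle fiber is a single cell with many nuclei. When the motor nerve fires, the membrane depolarizes and the voltage sensor Cav1.1, whose pore-forming subunit is the product of Cacna1s, opens the ryanodine receptor Ryr1 so that stored calcium is released and the fiber contracts. Without Cav1.1 this coupling is lost and the fetus does not move. Most nuclei of a fiber transcribe its contractile genes, while a small group under the nerve ending expresses the genes of the neuromuscular junction, among them Chrne, the adult epsilon subunit of the acetylcholine receptor, and others at the fiber ends express Col22a1, a collagen of the myotendinous junction. Myh7 encodes the slow myosin heavy chain, and Maf is a transcription factor that was used here as a marker of maturing fibers.

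The 5 genes belong to unrelated families. Ppp1r27 encodes a small regulatory subunit that binds the catalytic subunit of protein phosphatase 1. Sec14l5 encodes a member of the SEC14-like family of proteins with a lipid-binding domain. Btk encodes a cytoplasmic tyrosine kinase of the Tec family, best known for signalling downstream of the B cell receptor and also present in myeloid cells. Tafa4 encodes a small secreted protein of the TAFA family, related to chemokines and studied mainly in sensory neurons. Dqx1 encodes a putative RNA helicase whose helicase motif has the letters DEAQ in place of the more common DEAH.

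All 5 are protein-coding genes of the nuclear genome (GRCm38). Dqx1 (ENSMUSG00000009145) lies on chromosome 6 from 83057844 to 83067318, 36 bp from Aup1 on the same strand. Tafa4 (ENSMUSG00000046500, listed as Fam19a4 in the annotation) lies on the minus strand of chromosome 6 from 96831203 to 97060413. Sec14l5 (ENSMUSG00000091712) lies on chromosome 16 from 5147109 to 5187271. Ppp1r27 (ENSMUSG00000025129) is the shortest of the 5, with 1154 bp and 3 exons on the minus strand of chromosome 11 from 120549979 to 120551132. Btk (ENSMUSG00000031264) lies on the minus strand of chromosome X from 134542336 to 134583570, and the pseudogene Gm15154 overlaps it. The sources used here do not give the sex of the pooled fetuses.

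The 250 bases upstream of the start are printed for the 3 genes whose start region carried an ATAC peak. They were taken from RefSeq (GRCm38.p6), which held 4 of the 5 genes, and are read 5′ to 3′ on the gene's own strand. The intervals are chr11:120551133-120551382 on the minus strand for Ppp1r27, chr16:5146859-5147108 on the plus strand for Sec14l5 and chr6:97060412-97060661 on the minus strand for Tafa4. Capitals mark matches to the E-box CANNTG, the motif read by myogenic factors of the MyoD family, and to the TATA box TATAAA, which reads TTTATA where it lies on the opposite strand.
Ppp1r27: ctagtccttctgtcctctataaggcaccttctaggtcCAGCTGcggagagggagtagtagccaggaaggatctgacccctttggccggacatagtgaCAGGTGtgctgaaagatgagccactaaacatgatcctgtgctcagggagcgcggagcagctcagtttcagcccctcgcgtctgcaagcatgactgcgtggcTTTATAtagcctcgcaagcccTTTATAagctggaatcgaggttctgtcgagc
Sec14l5: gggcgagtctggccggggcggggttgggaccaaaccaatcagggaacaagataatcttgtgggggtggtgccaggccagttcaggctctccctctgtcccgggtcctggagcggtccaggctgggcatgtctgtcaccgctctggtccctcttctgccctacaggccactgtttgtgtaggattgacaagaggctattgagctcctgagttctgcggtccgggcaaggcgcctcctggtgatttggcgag
Tafa4: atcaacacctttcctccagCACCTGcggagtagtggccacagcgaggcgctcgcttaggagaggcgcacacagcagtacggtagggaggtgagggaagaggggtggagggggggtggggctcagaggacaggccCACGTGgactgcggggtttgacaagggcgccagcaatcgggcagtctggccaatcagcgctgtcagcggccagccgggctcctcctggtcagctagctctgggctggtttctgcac

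The Ppp1r27 window held an E-box at 213 and at 153 bases before the start (positions -213 and -153) and an opposite-strand TATAAA at -52 and -31. Tafa4 held an E-box at -231 and at -116, Btk a single one at -165, and Sec14l5 held none. Of 32851 RefSeq promoter windows of this length, 66.2% held CANNTG and 12.4% held TATAAA on either strand. The other 6 motifs searched on both strands had no match in any of the 4 windows. They were the TEAD motif CATTCC (12.6% of all windows), the N-box CCGGAA of synaptic genes (12.0%), the NFAT motif GGAAAA (20.4%), the short Maf site TGCTGAC (3.81%), the MEF2 motif (2.92%) and the CArG box (1.47%). Where no match was found, only these letters were absent from these windows. The GC content was 54.4% for Ppp1r27, 61.6% for Sec14l5 and 65.2% for Tafa4, beside a median of 52.4% over all windows.

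The libraries held 21394846 to 49913899 unique RNA molecules (UMIs) over 3621 to 5407 barcodes, of which 3228 to 5108 passed the filters. Myonuclei were the nuclei in which Ttn, Neb, Trdn and Ryr1 together made up at least 1.5% of UMIs (4% in the adult). There were 1809 in WT E14.5, 1563 in WT E18.5, 1764 in WT P5, 4388 in WT adult and 981 in KO, with 9740077 to 19664550 UMIs in sum. The median depth was 10200 UMIs per KO myonucleus and 6971 per WT E18.5 myonucleus, so shares of nuclei with a UMI favour the KO and levels were therefore read from sums, as counts scaled to a sum of 1000000 over all genes (CPM). Cacna1s itself was measured at 2058, 2371, 4287 and 6419 UMIs in the 4 WT libraries in order of age and at 8 UMIs in the KO, 189 CPM at WT E18.5 against 0.731 CPM. Pairs of libraries shared 17 to 47 barcode sequences, which were kept as separate nuclei. Markers of other cell types, myoblast genes left out, made up 0.0133% to 0.173% of myonuclear UMIs in each library. In a sum over nuclei, fewer nuclei that express a gene and less RNA per nucleus cannot be told apart, so the spread over nuclei is given beside each sum.

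Each of the 5 genes was lower in KO than in WT E18.5 myonuclei by more than 2-fold, and 3 of the 5 by more than 10-fold. Of the 15744 genes whose sums in WT and KO added up to 20 UMIs or more, 5.75% were at least 2-fold lower in the KO, 7.06% at least 2-fold higher and 0.152% at least 10-fold lower. The median log2 ratio of KO over WT was -3.70 over the 5 genes and -0.03 over all genes. This is what the genes were chosen for and is read no further. Sums alone hide a difference among them, since Sec14l5 and Ppp1r27 were spread over many WT nuclei while Dqx1, Tafa4 and Btk were concentrated in few.

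Sec14l5 was the most widely detected of the group. Listed as WT E14.5, E18.5, P5, adult and then KO, its sums were 115, 578, 1514, 2780 and 39 UMIs, which is 11.8, 46.2, 122, 141 and 3.56 CPM. It increased from each WT stage to the next, and the KO lay below every WT library, E14.5 included. A UMI was found in 5.42% of E14.5, 23.0% of E18.5, 44.7% of P5 and 37.1% of adult myonuclei and in 3.57% of KO myonuclei (95% interval 2.50 to 4.93). In nuclei with under 0.5% of the 4 muscle genes the share was 0.0738% to 0.539%, so the KO share stood above the level that free RNA gave in the same library (0.149%, with a median depth of 6822.5 UMIs in those nuclei). The ratio of KO over WT E18.5 was 0.0772 (interval 0.0543 to 0.107).

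Ppp1r27 was spread over nuclei in a similar way at a lower detection rate. With the libraries in the same order it gave 17, 197, 446, 235 and 18 UMIs, corresponding to 1.75, 15.7, 36.0, 12.0 and 1.65 CPM. The level peaked at P5, and the intervals of the KO (0.975 to 2.60 CPM) and of E14.5 (1.02 to 2.79 CPM) overlapped. The share of myonuclei with a UMI was 0.884%, 9.28%, 16.4%, 4.60% and 1.53% in the same order. Nuclei with little muscle RNA had a UMI in 0 to 0.264% of cases, and in the KO in 0 of 2020, which allows up to 0.182%. KO was 9.57-fold lower than WT E18.5 (ratio 0.105, interval 0.0607 to 0.170).

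Btk had another time course. Its sums, again from WT E14.5 to adult with the KO last, were 12, 169, 27, 1 and 21 UMIs, or 1.23, 13.5, 2.18, 0.0509 and 1.92 CPM. WT E18.5 stood apart from all other libraries, and the KO interval (1.19 to 2.93 CPM) overlapped those of E14.5 and P5. Detection was 2.88% of WT E18.5 myonuclei and 1.83% of KO myonuclei, against 1.99% and 2.72% of the nuclei with little muscle RNA, which include macrophages. Most Btk-positive nuclei with little muscle RNA met the macrophage gate described below. Outside that gate 5 of 1878 such KO nuclei (0.266%) and 8 of 2437 of WT E18.5 (0.328%) had a UMI, at median depths of 6778.5 and 5425 UMIs, so the share in KO myonuclei (18 of 981) stood above that level. Between the genotypes the shares of myonuclei were closer than the sums, and the UMIs per positive nucleus differed more. The summed level was 7.03-fold lower in the KO (ratio 0.142, interval 0.0858 to 0.224).

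Tafa4 was found in few nuclei at every stage. The 4 WT stages gave 6, 147, 133 and 777 UMIs and the KO 8, or 0.616, 11.7, 10.7, 39.5 and 0.731 CPM. The adult was highest, E18.5 and P5 had overlapping intervals, and E14.5 and the KO were both low with overlapping intervals. Only 0.276% to 1.76% of WT myonuclei had a UMI, with 1.60% at E18.5 against 0.714% in the KO (0.347% of KO nuclei with little muscle RNA). The summed level was 16.1-fold lower in the KO (ratio 0.0623, interval 0.0264 to 0.126).

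Dqx1 was high in a single library. By age the WT libraries gave 8, 288, 6 and 15 UMIs and the KO 7, or 0.821, 23.0, 0.484, 0.763 and 0.640 CPM. The intervals of the other 4 libraries overlapped one another, and none reached 2 CPM at its upper bound, while WT E18.5 began at 20.4 CPM. Only 1.47% of WT E18.5 myonuclei had a UMI, and the KO share of 0.612% was below that of KO nuclei with little muscle RNA (0.990%), so it is read as background. The KO sum was 36.0-fold lower (ratio 0.0278, interval 0.0111 to 0.0580).

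**Figure D1:**
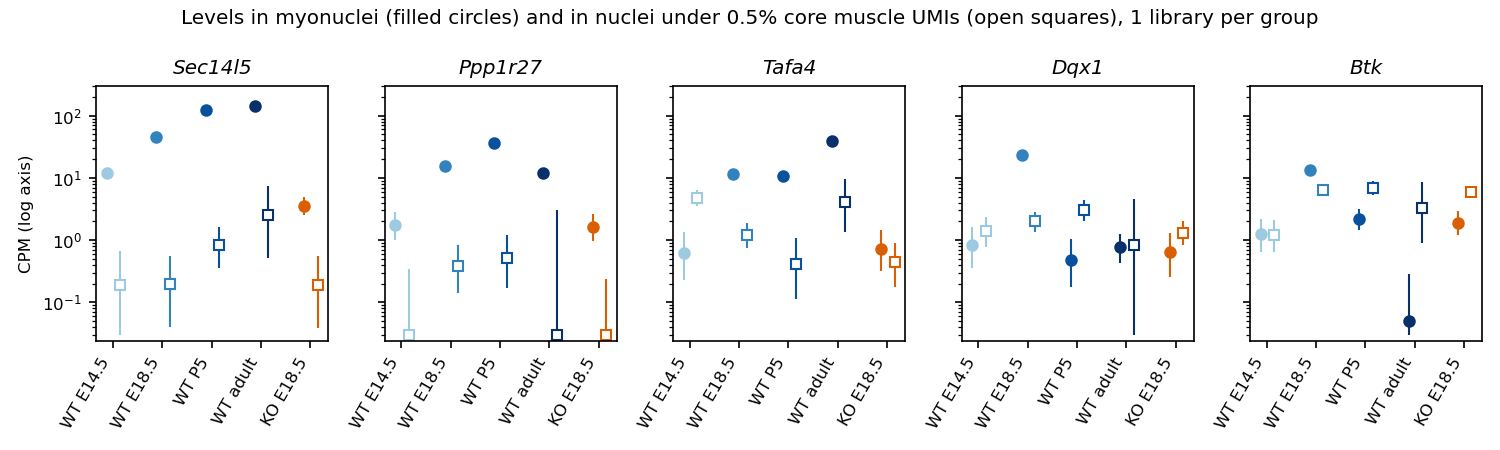
Level of each gene in CPM (log axis; values of 0 are drawn at the lower edge) in the 5 libraries, in myonuclei (filled circles) and in nuclei with under 0.5% of UMIs from Ttn, Neb, Trdn and Ryr1 (open squares), with exact 95% Poisson intervals of counting error as bars. Sec14l5 climbed from 11.8 at E14.5 to 141 in the adult and stood at 3.56 in the KO, while Dqx1 reached 23.0 at WT E18.5 and stayed under 1 in the myonuclei of the other 4 libraries.

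The stages were not used to choose the genes, but WT E18.5 is shared with the KO contrast, so a gene that is high there by any route is favoured in both. From E14.5 to E18.5 all 5 genes were at least 2-fold higher, where 17.6% of 15456 genes were, and 3 of the 5 were at least 10-fold higher, where 1.81% were. In that step Dqx1 was 28.0-fold higher (interval 14.0 to 65.5), Tafa4 19.1-fold (8.55 to 52.8), Btk 11.0-fold (6.11 to 21.6), Ppp1r27 9.02-fold (5.49 to 15.8) and Sec14l5 3.91-fold (3.20 to 4.82). The median log2 ratio was 3.45 over the 5 genes and 0.16 over all genes.

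After birth the 5 genes went separate ways. The median log2 ratio over all genes was -0.34 from E18.5 to P5 and -0.45 from P5 to the adult, and that over the 5 genes was -0.13 and 0.21. From E18.5 to P5 Sec14l5 was 2.65-fold higher (interval 2.40 to 2.92) and Ppp1r27 2.29-fold higher (1.93 to 2.72), where 8.01% of genes were at least 2-fold higher. Over the same step Tafa4 had a ratio of 0.914 (0.718 to 1.16), while Btk was 6.19-fold lower (4.11 to 9.67) and Dqx1 47.5-fold lower (21.6 to 130.5), where 20% of genes were at least 2-fold lower and 1.1% at least 10-fold. From P5 to the adult Tafa4 was 3.68-fold higher (3.06 to 4.46), where 7.84% of genes were at least 2-fold higher, and Sec14l5 had a ratio of 1.16 (1.09 to 1.23). Ppp1r27 was 3.01-fold lower (2.57 to 3.54) in that step and Btk 42.9-fold lower on a single adult UMI (7.06 to 1755), where 35.2% of genes were at least 2-fold lower and 10.7% at least 10-fold. With the main processing Sec14l5 is thus the only one of the 5 whose level was above the stage before it at each of the 3 steps beyond the counting interval. Its last step of 1.16-fold depended on the processing. It was smaller with a 3% threshold and larger when scaled by the median ratio over genes, as given in the closing section. Set beside WT E14.5, the KO had a ratio of 0.302 for Sec14l5 (0.204 to 0.438), 0.943 for Ppp1r27 (0.458 to 1.95), 1.56 for Btk (0.732 to 3.47), 1.19 for Tafa4 (0.361 to 4.15) and 0.779 for Dqx1 (0.240 to 2.46). Only the Sec14l5 interval lay wholly below 1, and 9.21% of genes were at least 2-fold lower in the KO than at E14.5.

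How the UMIs were divided among nuclei separated the group. In WT E18.5 the 23 myonuclei with Dqx1 held a mean of 12.5 UMIs each, and the 12 nuclei with 3 or more held 277 of the 288 UMIs, with 74 and 66 in the top pair. Btk was similar in kind, with 16 nuclei of 3 or more UMIs holding 133 of 169 and a maximum of 34. For Tafa4 13 such nuclei held 130 of 147 UMIs, with a maximum of 39. Sec14l5 and Ppp1r27 differed: Sec14l5 averaged 1.61 UMIs over 359 positive nuclei with a maximum of 8, and Ppp1r27 averaged 1.36 over 145 with a maximum of 4.

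The ratio of variance to mean over nuclei (Fano factor) puts these on a common scale. Among 5801 genes with 100 to 600 UMIs in WT E18.5 myonuclei the median was 1.36. Dqx1 had a Fano factor of 42.0, exceeded by 2 genes, Tafa4 19.5, exceeded by 17, and Btk 12.3, exceeded by 37. For Sec14l5 it was 1.87, with 1070 genes higher, and for Ppp1r27 1.57, with 1731 higher. A count that rests on so few nuclei is less certain than its Poisson interval says, so the intervals of Dqx1, Tafa4 and Btk are too narrow.

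No KO myonucleus held 3 or more UMIs of Dqx1, Tafa4, Btk or Sec14l5, and a single one held 3 of Ppp1r27. Counting each nucleus at most once, KO was 2.41-fold lower for Dqx1, 2.24-fold for Tafa4, 1.57-fold for Btk, 6.44-fold for Sec14l5 and 6.07-fold for Ppp1r27. After each nucleus was thinned to 1000 UMIs, which removes the difference in depth, Sec14l5 was found in 4.88% of WT and 0.308% of KO nuclei and Ppp1r27 in 1.48% and 0.206%. Thinned shares were 0.834% and 0 for Dqx1 (the upper bound for the KO is 0.378%), 0.513% and 0.103% for Tafa4 and 1.09% and 0.206% for Btk. These are the counts on which the genes were chosen, so they only describe 1 library per genotype. For Sec14l5 and Ppp1r27 the KO library had a lower detection over the whole population of myonuclei. For Dqx1, Tafa4 and Btk the KO library lacked, among the nuclei kept, the 12 to 16 nuclei with many UMIs. A choice on sums can also favour genes whose WT sum is carried by few nuclei.

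**Figure D2:**
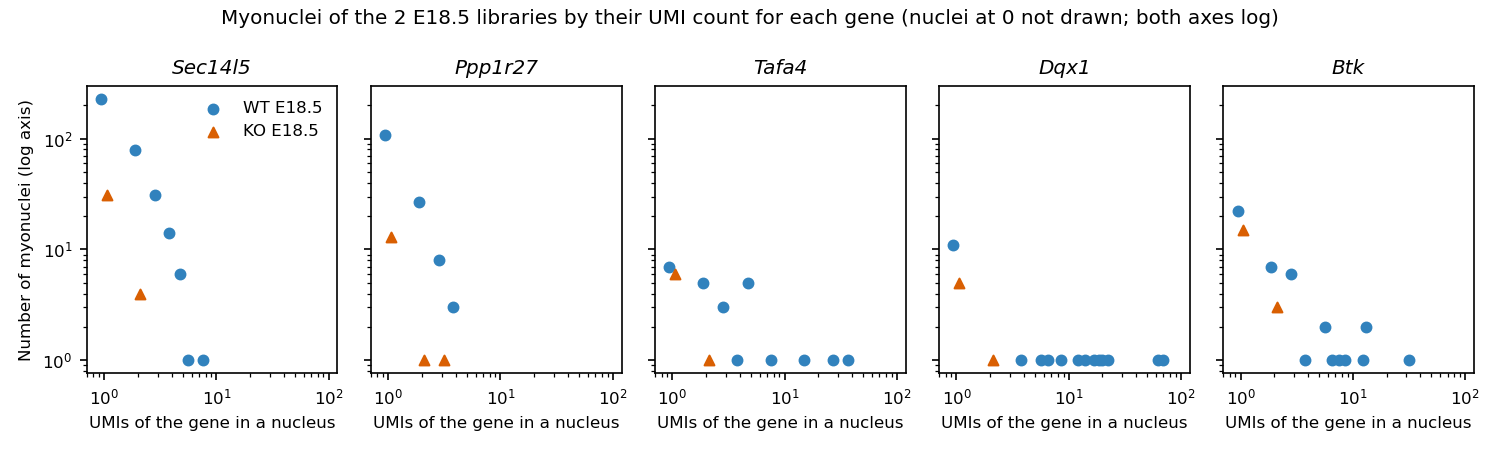
Number of myonuclei (log axis) by UMI count of the gene in a nucleus (log axis) in WT E18.5 (circles) and KO E18.5 (triangles), with nuclei at 0 left out and the symbols shifted slightly sideways so that both can be seen. Dqx1 reached 74 UMIs in a WT nucleus and Btk 34, whereas no KO nucleus held more than 3 UMIs of any of the 5 genes.

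Of the 12 Dqx1-high and 16 Btk-high nuclei at WT E18.5, 1 was high for both, and numbers this small say nothing of whether these nuclei tend to coincide. Ppp1r27 was found in 36.0% of the 25 nuclei with Tafa4 and in 9.28% of all myonuclei at WT E18.5, in 38.7% and 16.4% at P5, and in 1 of 45 and 4.60% in the adult. Sec14l5 and Ppp1r27 were found together in 67 nuclei, 46.2% of the nuclei with Ppp1r27 against 23.0% of all myonuclei with Sec14l5. At P5 they shared 163 nuclei (56.4% against 44.7%) and in the adult 114 (56.4% against 37.1%). The 35 and 15 positive nuclei of the KO were too few for this comparison. Deeper nuclei detect more of both genes, and the part of depth in these overlaps was not tested.

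Whether the nuclei with many Btk UMIs were macrophages can be read from their other RNA. The macrophage list (Csf1r, Adgre1, Mrc1, F13a1, Ptprc, Cd163 and Mertk) gave a single UMI in the 16 Btk-high nuclei of WT E18.5, from Mertk, with the other 6 genes at 0. Summed over all myonuclei the list stood at 104 CPM in WT E18.5 and 129.9 CPM in the KO. The 16 nuclei held a median of 8139 UMIs and 2.82% of the 4 muscle genes, against 6969 UMIs and 3.91% in the other myonuclei. At P5, by contrast, the 2 nuclei with 3 or more Btk UMIs held 77 macrophage UMIs, among them 23 of Mrc1, 19 of F13a1 and 13 of Adgre1.

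Btk was also present where it is known to be expressed. Nuclei with little muscle RNA were gated by the marker list with most UMIs, if it had at least 3. Those gated by the macrophage list had 159 CPM of Btk at WT E18.5 (78 nuclei, interval 126 to 197) and 70.7 CPM in the KO (142 nuclei, interval 56.5 to 87.5). In these nuclei the KO was 2.25-fold lower (ratio 0.445, interval 0.325 to 0.610). At P5 the level was 138 CPM, in the adult 134.5 CPM on 4 UMIs and at E14.5 42.8 CPM on 8 UMIs. Gating on UMIs of a list does not make these nuclei a pure type, and the makeup of the gated nuclei in the 2 genotypes was not compared.

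Tafa4 lay mostly in nuclei with Chrne, a gene of the neuromuscular junction, at P5 and in the adult, but not at E18.5. Nuclei with at least 1 Chrne UMI were absent at E14.5 and numbered 15 of 1563 in WT E18.5, 74 of 1764 in WT P5, 63 of 4388 in WT adult and 9 of 981 in KO. In them Tafa4 stood at 227 CPM at E18.5 against 9.14 CPM in the other myonuclei (ratio 24.8, interval 16.4 to 36.7). Only 2 of the 13 nuclei with 3 or more Tafa4 UMIs at E18.5 were Chrne-positive, so this interval is too narrow. The values were 149 against 2.73 CPM at P5 (ratio 54.6, interval 36.3 to 83.9) and 1724 against 5.86 CPM in the adult (ratio 294, interval 241 to 362). The share of genes that were at least 10-fold higher in Chrne-positive nuclei on more than 3 UMIs was 0.258% in WT E18.5, 0.369% in WT P5 and 0.817% in WT adult. Chrne-positive nuclei held 23.1%, 75.9% and 85.5% of Tafa4 UMIs in the same libraries. Nuclei with at least 2 UMIs over Chrne, Musk, Colq, Etv5, Ufsp1 and Lrp4, a wider set of junction genes that took in 64.9%, 57.3% and 18.1% of myonuclei, held 98.6%, 94.0% and 97.9%.

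Seen from the nuclei with 3 or more Tafa4 UMIs, 2 of 13 had a Chrne UMI at E18.5, 13 of 18 at P5 (72.2% against 3.49% of other myonuclei) and 15 of 21 in the adult (71.4% against 1.10%). By the wider set it was 13 of 13, 16 of 18 and 21 of 21. Tafa4 had no UMI in any Myh7-positive nucleus of WT E18.5 (167 nuclei), P5 (109), adult (31) or of the KO (126). At 3 counts these zeros allow up to 0.149, 0.301, 0.515 and 2.46 times the level of the other myonuclei, in the same order. Few nuclei had a Tafa4 UMI at all, and whether it avoids Myh7-positive nuclei was not tested. At E14.5, where 906 of 1809 nuclei were Myh7-positive, these held 3 of the 6 Tafa4 UMIs. In the adult 771 of the 777 UMIs lay in nuclei whose highest myosin was Myh4, the fastest isoform. Of all adult myonuclei 79.8% were of this kind. None of the UMIs lay in the 244 nuclei (5.56%) whose highest was Myh2. Only 45 adult nuclei had a Tafa4 UMI, and 21 of them held 750 of the UMIs, so a tie to fiber type was not tested. The Tafa4-high nuclei also carried Mrc1, a mannose receptor of the macrophage list, with 83 UMIs in the 13 nuclei at E18.5 and none of the other 6 genes. At P5 238 of 239 macrophage-list UMIs of these nuclei were Mrc1, and in the adult all 85. Over all myonuclei Mrc1 also led the list, with 622, 3715 and 709 UMIs at E18.5, P5 and in the adult. The next gene had 310 (F13a1), 333 (F13a1) and 39 (Mertk). The list stood at 598 CPM in the Tafa4-high nuclei against 98.5 in the others at E18.5, 1312 against 352 at P5 and 703 against 37.5 in the adult.

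In the KO the 9 Chrne-positive nuclei held no Tafa4 UMI, which puts the level at least 7.82-fold below that of the 15 WT nuclei when 3 counts are allowed. In Chrne-negative nuclei Tafa4 was 0.738 CPM against 9.14 CPM (ratio 0.0808, interval 0.0341 to 0.165). Chrne itself gave 18 UMIs in WT E18.5 and 9 in the KO (ratio 0.572, interval 0.226 to 1.34). Outside the myonuclei, nuclei gated in the same way by the mesenchymal list held 45 Tafa4 UMIs at E14.5 (6.05 CPM), 1.44 CPM at WT E18.5 and 0.440 CPM in the KO (ratio 0.306, interval 0.0752 to 0.928).

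**Figure D3:**
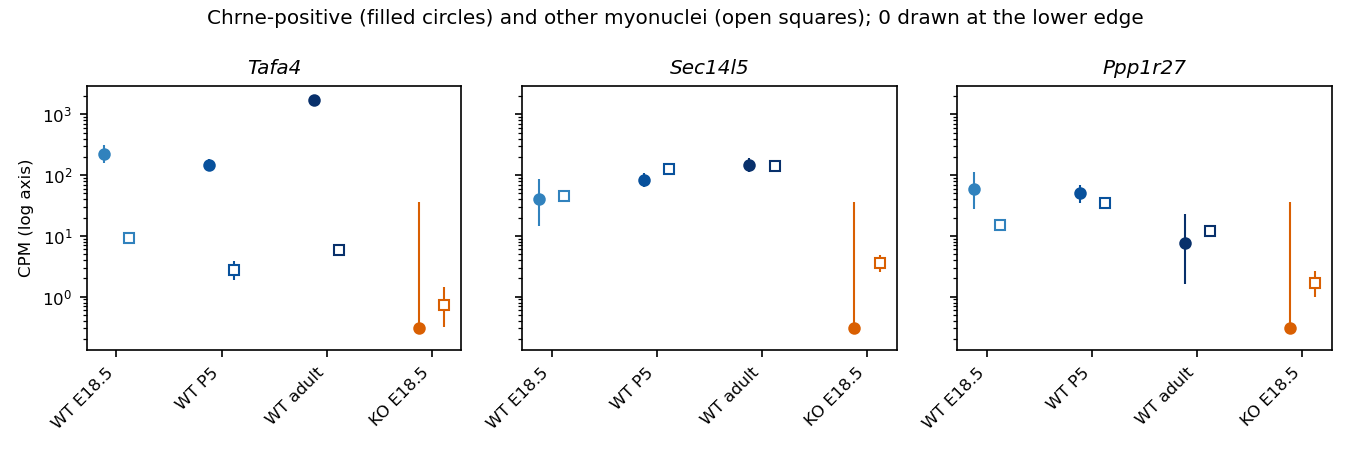
Level of Tafa4, Sec14l5 and Ppp1r27 in CPM (log axis, values of 0 at the lower edge) in Chrne-positive myonuclei (filled circles) and other myonuclei (open squares) of the 4 libraries that held any, with exact 95% Poisson intervals. Tafa4 was higher in the Chrne-positive nuclei of WT E18.5, P5 and adult, up to 1724 against 5.86 in the adult, and Sec14l5 and Ppp1r27 showed no such gap in all 3 libraries.

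The other 4 genes were not confined to Chrne-positive nuclei, and at E18.5 neither was Tafa4. Sec14l5 was 40.1 against 46.2 CPM at E18.5, 84.1 against 124 at P5 (ratio 0.676, interval 0.510 to 0.881) and 148 against 141 in the adult. Ppp1r27 was 60.1 against 15.2 CPM at E18.5 (9 UMIs in 15 nuclei, ratio 3.95, interval 1.78 to 7.67), and with the wider set of junction genes the log2 ratio was -0.10. Its values were 50.2 against 35.2 CPM at P5 and 7.79 against 12.0 in the adult. Dqx1 and Btk had no UMI in the 15 Chrne-positive nuclei of WT E18.5, where the other nuclei had 23.3 and 13.7 CPM. So few nuclei leave up to 20.0 CPM for each at 3 counts, which is not far from those levels.

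Nor was any of the 5 confined to Myh7-positive nuclei. At WT E18.5 these 167 nuclei had 14.6 CPM of Dqx1 against 24.2 in the others, 33.8 against 47.9 of Sec14l5 (ratio 0.706, interval 0.519 to 0.942), 21.2 against 15.0 of Ppp1r27 and 11.9 against 13.7 of Btk. With at least 5 Myh7 UMIs as the requirement the log2 ratio of Dqx1 was 0.18 and that of Btk 0.52, so the direction of Dqx1 and Btk depended on the definition. Later, Ppp1r27 was lower in Myh7-positive nuclei at P5 (16.2 against 37.5 CPM, ratio 0.433, interval 0.234 to 0.734), but in the adult it was 27.4 against 11.8 CPM on 4 UMIs (ratio 2.31, interval 0.625 to 5.999). Sec14l5 was lower in Myh7-positive nuclei of the adult (68.4 against 142 CPM, ratio 0.482, interval 0.231 to 0.888). By the highest myosin of a nucleus, at P5 Ppp1r27 was 47.2 CPM where Myh4 was the highest myosin and 5.66 CPM where Myh7 was. For Sec14l5 at WT E18.5 nuclei with the fetal Myh8 on top had 55.5 CPM and those with the embryonic Myh3 19.3 CPM.

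At WT E18.5 Sec14l5 and Ppp1r27 were higher in nuclei with Maf RNA. Sec14l5 was 67.2 CPM in the 450 nuclei with a Maf UMI and 35.5 CPM in the other 1113 (ratio 1.89, interval 1.60 to 2.24). Ppp1r27 was 23.0 and 12.0 CPM (ratio 1.91, interval 1.43 to 2.56). The gap was smaller at P5, with ratios of 1.15 for Sec14l5 (1.04 to 1.28) and 1.37 for Ppp1r27 (1.12 to 1.68), and in the adult the ratios were 1.09 (0.970 to 1.22) and 1.07 (0.723 to 1.64). For Sec14l5 the ratio was 0.618 at E14.5 (0.165 to 1.63) and 0.632 in the KO (0.235 to 1.46), so its pattern was mainly that of WT E18.5, while Ppp1r27 had 2.89 in the KO (1.02 to 8.21) on 18 UMIs. At WT E18.5 Dqx1 (10.7 and 29.3 CPM) and Btk (5.94 and 17.3 CPM) lay the other way, but these sums rest on few nuclei. Of the 12 nuclei with 3 or more Dqx1 UMIs 2 had a Maf UMI, against 28.9% of other myonuclei. For Btk it was 2 of 16 against 29.0%, and whether so few nuclei differ was not tested. In WT E18.5 nuclei with Col22a1 both broad genes were low, Sec14l5 at 17.2 against 53.6 CPM (ratio 0.320, interval 0.230 to 0.436) and Ppp1r27 at 3.51 against 18.9 CPM (ratio 0.186, interval 0.0837 to 0.361). In the adult Ppp1r27 was still low there (1.32 against 12.4 CPM, on 1 UMI), but Sec14l5 was 189 against 139 CPM (ratio 1.36, interval 1.14 to 1.61).

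Inside the Maf and Myh7 classes of nuclei Sec14l5 and Ppp1r27 were lower in the KO as well. These classes only divide the sums on which the genes were chosen, so the values are a description and no further support. In Col22a1-positive nuclei the ratio was 0.0398 for Sec14l5 (0.000987 to 0.234) and 0.195 for Ppp1r27 (0.00444 to 1.41), on 1 KO UMI each. Sec14l5 was 27.0-fold lower in Maf-positive nuclei (interval of the ratio 0.0147 to 0.0773), and the ratio in Maf-negative nuclei was 0.111 (0.0745 to 0.160). It was 9.77-fold lower in Myh7-positive nuclei. Ppp1r27 was 7.20-fold lower in Maf-positive nuclei (interval of the ratio 0.0616 to 0.275), with a ratio of 0.0920 in Maf-negative nuclei (0.0409 to 0.182), and 10.2-fold lower in Myh7-positive ones. Btk behaved otherwise, with a ratio of 0.0852 in Maf-negative nuclei (0.0430 to 0.153) but 0.539 in Maf-positive (0.221 to 1.19) and 0.438 in Col22a1-positive nuclei (0.162 to 1.03), on 9 and 7 KO UMIs. Maf itself had a KO over WT ratio of 0.614.

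The filter that removes barcodes with more than 25000 UMIs bears on the comparison, because it took away 378 barcodes in the KO and 125 in WT E18.5. Among the removed barcodes that met the muscle threshold (146 KO and 67 WT), Dqx1 gave 31 UMIs in the KO, 20 of them in 1 barcode, and 5 in WT (4.42 against 1.55 CPM). There the direction was opposite to that in the kept nuclei. Tafa4 was 2.71 against 15.8 CPM, Sec14l5 4.00 against 33.2, Ppp1r27 0.856 against 7.13 and Btk 2.57 against 9.30.

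The threshold on the 4 muscle genes also has members near it. In the 110 WT nuclei just inside, from 1.5% to 2%, there were 48 Dqx1 UMIs (42.6 CPM), 11 of Btk (9.76 CPM) and 20 of Sec14l5 (17.8 CPM). In the 93 just outside, from 1% to 1.5%, there were 0 of Dqx1, 31 of Btk (39.3 CPM) and 9 of Sec14l5 (11.4 CPM). The 125 and 112 KO nuclei in the same ranges held 0 to 3 UMIs of each gene. Without the 2 nuclei that held most UMIs of each gene in each library, 4 of the 5 genes were at least 10-fold lower in the KO, and with each nucleus counted at most once none was. The 2 nuclei held 27.8% of KO and 4.06% of WT UMIs for Ppp1r27 and 10.3% and 2.42% for Sec14l5, which raises their folds. For Dqx1, Tafa4 and Btk they held a larger part of the WT than of the KO UMIs.

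**Figure D4:**
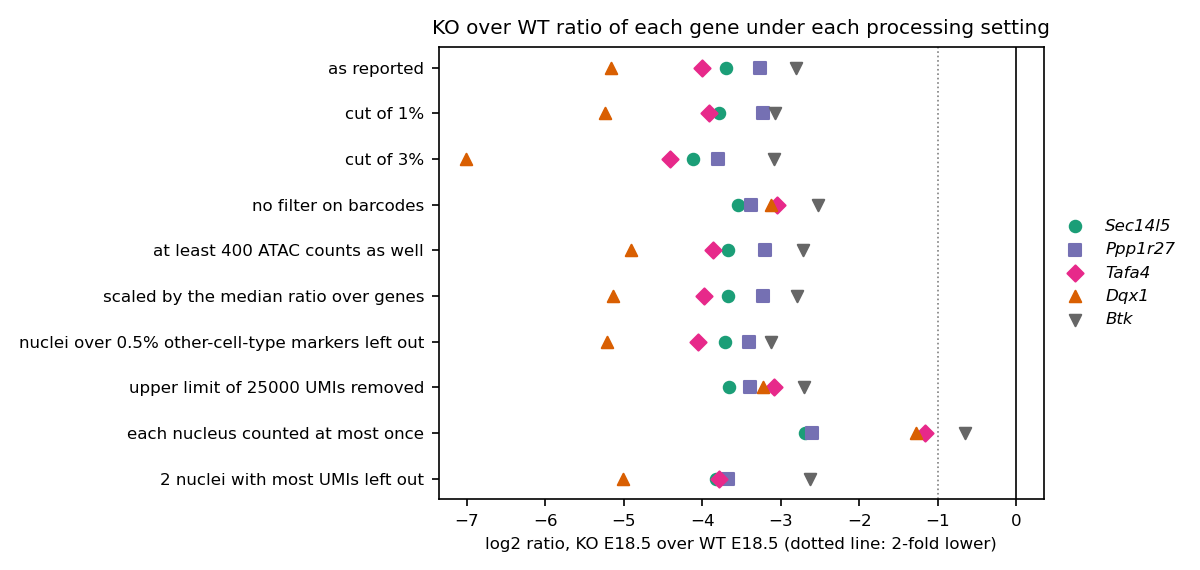
Log2 ratio of KO over WT E18.5 myonuclei for each gene (symbols) under the main processing and 9 alternatives (rows), with a dotted line at 2-fold lower. All 50 values lay below 0, and Dqx1 ranged most widely, from -7.01 with a 3% muscle threshold to -1.27 with each nucleus counted at most once.

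Chromatin near the genes was compared next. ATAC peaks were called in each library alone, so a region without a peak has no count there, and the ATAC counts in peaks summed to 5705012 over KO and 14651963 over WT E18.5 myonuclei. At WT E18.5, 40.4% of all peaks and 10.6% of those with at least 100 counts had no overlapping KO peak. ATAC values below are counts in a region scaled to 1000000 counts in peaks (CPM), and intervals treat 2 counts as 1 fragment.

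Ppp1r27 had a peak over its start in WT E18.5 and none in the KO. The region over its start (chr11:120550901-120551718 at E18.5) was called at E18.5 (12.7 CPM, interval 10.2 to 15.6), P5 (26.9, interval 22.9 to 31.4) and in the adult (34.0, interval 31.4 to 36.7), and neither at E14.5 nor in the KO. Of WT E18.5 peaks with at least 100 counts, 2.83% showed this pattern. In nuclei with little muscle RNA the same region had 2.95 to 4.99 CPM in those 3 libraries. The ATAC values of the start therefore rank the WT libraries as E18.5, P5 and adult, whereas the RNA was lower in the adult than at P5. A region centred 4.1 kb upstream was likewise called in these 3 libraries alone (5.05, 8.84 and 9.04 CPM), and another 1.9 kb upstream only at E18.5 (7.58 CPM). The region 1.4 kb downstream of the start, past the end of this short gene, was called in all 5 libraries and was 27.3 CPM in WT E18.5 and 31.9 CPM in the KO (ratio 1.17, interval 0.902 to 1.5).

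Sec14l5 kept its start peak in every library, at a lower value in the KO. The region centred 0.3 kb upstream had 27.5, 27.4, 28.1 and 50.2 CPM in the WT libraries in order of age and 16.5 CPM in the KO (KO over WT E18.5 0.602, interval 0.429 to 0.831). Of peaks with at least 100 counts called in both, 7.39% were at least 1.5-fold lower in the KO. The neighbouring region 1.5 kb upstream had a ratio of 1.02 (0.600 to 1.68). Inside the gene, a region 25.8 kb from the start had 26.2 CPM in WT E18.5 and 11.9 CPM in the KO (ratio 0.455, interval 0.306 to 0.658), and one at 21.9 kb was called in WT E18.5, P5 and adult but not in the KO. Over the gene and 5 kb to each side 11 regions were called in all, with 4 called in WT E14.5, 5 in E18.5, 7 in P5, 11 in adult and 4 in KO, the order of the RNA in the WT libraries. The adult also held the most ATAC counts of the 5 libraries (38148233). Regions inside the gene at 10.2, 21.9, 25.8 and 39.1 kb had 0 to 4.36 CPM in nuclei with little muscle RNA.

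At the other genes no difference beyond the counting interval was seen at such regions. Tafa4 had a peak over its start in all 5 libraries, at 8.12 CPM in WT E18.5 and 4.73 CPM in the KO (ratio 0.583, interval 0.297 to 1.06), and at 1.68 CPM in the adult, where the RNA was highest. Btk had no peak over its start in any library, and the region 2.5 kb upstream was 19.3 CPM in WT E18.5 and 22.6 CPM in the KO (ratio 1.17, interval 0.858 to 1.58). Dqx1 had none over its start either. The region 3.2 kb before it was 66.8 and 62.2 CPM (ratio 0.931, interval 0.780 to 1.11), with similar values in nuclei with little muscle RNA.

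**Figure D5:**
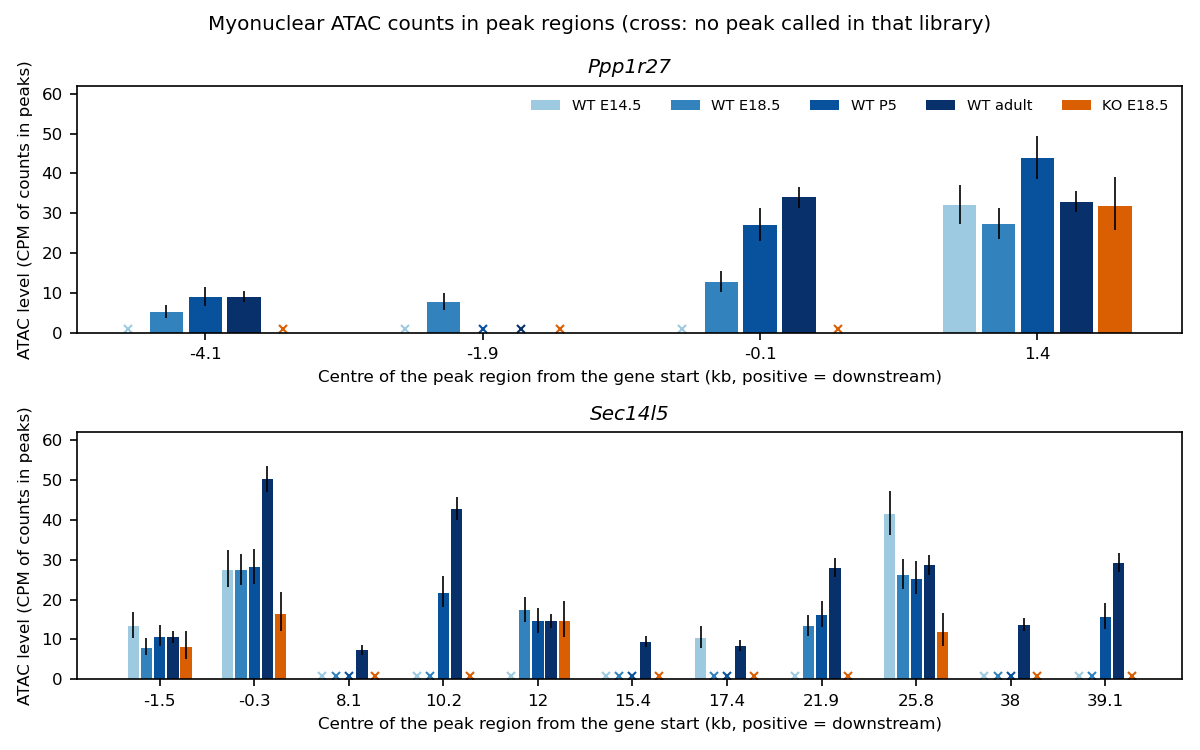
Myonuclear ATAC level (CPM) in the peak regions within 5 kb of Ppp1r27 and Sec14l5 (gene intervals included), by distance of the region's centre from the gene start, with exact 95% intervals and a cross where a library had no peak. At Ppp1r27 the region at -0.1 kb carried 12.7, 26.9 and 34.0 in WT E18.5, P5 and adult and no peak at E14.5 or in the KO, and at Sec14l5 the bars of the KO were lower at -0.3 and 25.8 kb.

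Relatives of the 5 genes were looked up in the same KO contrast. Over all genes 5.75% were at least 2-fold lower in the KO and 7.06% at least 2-fold higher. Most families had too few measured genes to be set against these shares, so no family pattern was read. Of 3 measured Tec kinases other than Btk none was past 2-fold, and Tec, the most abundant, was 39.0 CPM in WT E18.5 and 32.2 in the KO. Of 3 measured TAFA genes besides Tafa4 2 were at least 2-fold higher in the KO, Tafa1 (3.73-fold) and Tafa5 (2.02-fold), while Tafa2 had a ratio of 0.997. Sec14l1 (174 and 200.2 CPM) and Sec14l2, the measured relatives of Sec14l5, and all 16 DEAH-box helicases stayed within 2-fold. Of 33 measured regulators of protein phosphatase 1, Ppp1r1a (3.12-fold) and Ppp1r3c (2.10-fold), a subunit that targets the phosphatase to glycogen, were lower and Ppp1r1c was 6.41-fold higher. Of 10 genes of B cell receptor signalling 4 were measured, none was at least 2-fold lower, and Ptprc, a general leukocyte marker, was 4.51-fold higher in KO myonuclei, from 18 to 71 UMIs.

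Lists of muscle programs give the setting, beside the 5.75% of all genes at least 2-fold lower in the KO and 7.06% at least 2-fold higher. The slow fiber list had 3 of 11 genes at least 2-fold lower in the KO, namely Myl2 (47.5-fold), Myl3 (6.55-fold) and Myh7 (2.26-fold), and none higher, with a median log2 ratio of -0.48. The mature fast list had 6 of 13 lower, among them the calcium buffer Pvalb (45.4-fold), Mybpc2 (4.70-fold) and Actn3 (4.66-fold), and none higher, with a median of -0.93. The neuromuscular junction list had 2 of 14 lower, Ufsp1 (3.21-fold) and Ache (2.31-fold), and 2 higher, the receptor subunit Chrna1 (2.54-fold) and the receptor kinase Musk (2.32-fold), with a median of 0.19. Tafa4 was lower in the KO, and 12 of the 14 junction genes were not 2-fold lower. Some of the list had high levels over all WT E18.5 myonuclei, such as Utrn (942 CPM) and Lrp4 (217 CPM). Chrne, which marked the junction nuclei here, had 1.44 CPM and a KO over WT ratio of 0.572 (interval 0.226 to 1.34). Whether the junction nuclei as such differed was not tested.

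Among 10453 genes with at least 100 UMIs in the WT and KO sums added together, the 10 lowest KO ratios were those of Cacna1s (259-fold lower), Myl2, Pvalb, Dqx1, Eef1a2 (26.9-fold), Tnmd, Tafa4, Col2a1, Acan and Sec14l5. Ppp1r27 stood at rank 14 and Btk at rank 21. Tnmd is a tendon gene and Col2a1 and Acan are cartilage genes, and the summed tenocyte markers were 84.5 CPM in WT E18.5 and 24.5 CPM in KO myonuclei. Mesenchymal markers stood at 926 and 338 CPM in the same nuclei and muscle stem cell markers at 109 and 234 CPM. The part of these differences in the results for the 5 genes was not tested. Eef1a2 encodes the elongation factor isoform of mature muscle.

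Of the genes compared near the 5, none was as much as 2-fold lower in the KO. These were the 15 genes with enough UMIs whose listed position lay within 50 kb of that of one of the 5. Nagpa, the nearest gene to Sec14l5 at a gap of 8018 bp, was not among them. Of the 15, 7 had a KO ratio whose interval lay below 1 and 4 one above 1, and Gla, on 7 and 22 UMIs, was 3.60-fold higher. All 5 neighbours of Dqx1 had ratios below 1, with Aup1 (0.534, interval 0.397 to 0.713) and Loxl3 (0.535, interval 0.332 to 0.845) the lowest of the 15. The intervals of Pcgf1 (0.930, interval 0.411 to 2.06) and Ccdc142 (0.890, interval 0.478 to 1.63) included 1. Near Ppp1r27, Mcrip1 had 0.746 (0.600 to 0.924). Timm8a1, next to Btk, had 0.599 (0.406 to 0.873). Tafa4 had no measured neighbour in that range.

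Over 10 values (myonuclei and nuclei with little muscle RNA in the 5 libraries), the genes most like each member were found by Euclidean distance of centred log2(CPM + 1) among 15507 genes. Nearest to Sec14l5 was Actn3 (distance 1.64), the fast-fiber alpha-actinin, at 16.6, 68.6, 208 and 461 CPM in the WT stages and 14.7 CPM in the KO, followed by Sh3bgr and Gm40477. Nearest to Ppp1r27 were Smtnl1 (1.23), Ankrd2 and Myl2. Btk was nearest to Zfand2b (1.51), Insig1 and Ulk3, and Dqx1 to Galnt9 (1.72), Slc17a3 and Pkp1, genes whose WT E18.5 level was 4.23 to 8.15 CPM against 23.0 for Dqx1. Tafa4 was nearest to Gm5860 (1.83), Gm7854 and Gm30794, which were likewise highest in the adult.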

How the data were processed

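Hindlimb muscle of 5 groups, 1 pooled library each, was measured with the 10x Multiome assay, and each sample's title gave its group. Cell Ranger ARC 2.0.0, run by the authors against mm10 (GRCm38), made the deposited matrices of raw counts (UMIs per gene and ATAC cut sites per peak), with intronic reads included and peaks called in each library alone. The sources used here do not say how reads that fit several genes were counted.

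From these counts, barcodes were kept by the filter of the study's methods: between 400 and 25000 UMIs, no more than 10% of them mitochondrial, and up to 70000 ATAC counts. The number of KO nuclei stated by the study is larger than the number of barcodes in the table used here, and its numbers for the WT libraries are smaller than those this filter left. Myonuclei had at least 1.5% (adult 4%) of UMIs from Ttn, Neb, Trdn and Ryr1, and nuclei under 0.5% served as the level of free RNA. Doublets were not called. In one alternative, nuclei with over 0.5% of UMIs from markers of other cell types were left out.

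UMIs were summed per library and divided by the total (CPM). Ratios carry the exact 95% interval of the conditional binomial distribution, shares the Clopper-Pearson and sums the exact Poisson interval. A count of 0 set against more than 3 counts was put at 3 counts to give a bound. ATAC counts were divided by 2 for intervals. With 1 library per group no test was run. Shares were also computed after thinning to 1000 UMIs (seed 1). The scripts were tested on simulated data.

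The 5 genes and all gene lists were chosen with earlier results of these data known. Genes named in the text are the 5 genes, Cacna1s, measured genes within 50 kb, extremes of families and lists, the 10 lowest KO ratios among genes with at least 100 UMIs (Gm, Rik, mitochondrial and ribosomal protein symbols left out) and the 3 genes of most similar pattern among those with at least 50 UMIs. Macrophage genes, Tnmd, Col2a1, Acan and the myosins of the nuclear classes are named as markers. The tools were scipy 1.17.1, pandas 2.3.3, numpy 2.4.6 and matplotlib 3.10.9 under Python 3.11.15.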

Additional observations from a re-analysis of the deposited data

Results flagged for a closer look

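Dqx1 was the only result marked for a closer look, because its signal in barcodes left out of the comparison went against the main one. Among barcodes over 25000 UMIs that met the muscle threshold, the KO level was 2.85 times the WT level (31 UMIs in 6 of 146 barcodes against 5 UMIs in 2 of 67), with 20 of the KO UMIs in 1 barcode. In all removed barcodes of every kind Dqx1 gave 50 UMIs in the KO (2.42 CPM) and 84 in WT E18.5 (14.1 CPM, up to 47 in 1 barcode). With no upper limit on UMIs the log2 ratio over all myonuclei was -3.23.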

How the results depend on the processing

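All 50 KO over WT values (5 genes, the main processing and 9 alternatives) were below 0, and all 5 genes stayed at least 2-fold lower except Btk with each nucleus counted at most once. No paired analysis was possible because each group is 1 library and the labels carry no replicate numbers, and for the same reason no replicate could be left out. The alternatives that counted each nucleus at most once, left out the 2 top nuclei or removed only the upper UMI limit were chosen after seeing the data. The cause of each change below was not tested.

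The log2 KO ratio of Dqx1 was -7.01 with a 3% threshold, -3.12 with no filter on barcodes (also the median of the 5 genes), -3.23 with no upper limit (also the median) and -1.27 with each nucleus counted at most once (also the median). The last setting gave -1.16 for Tafa4, -2.69 for Sec14l5 and -0.65 for Btk, and 0 genes at least 10-fold lower in place of 3. Genes at least 2-fold lower numbered 457 of 11511 (3.97%) with at least 100 UMIs and 1490 of 23811 (6.26%) with no minimum, in place of 906.

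Between stages, the 3% threshold gave log2 ratios from E14.5 to E18.5 of 2.60 for Sec14l5 and 4.62 for Ppp1r27, from E18.5 to P5 of -0.55 for Tafa4, 1.20 for Sec14l5 and -1.88 for Btk, and from P5 to the adult of 0.07 for Sec14l5. Scaling by the median ratio over genes gave 1.75 for Sec14l5 and 1.54 for Ppp1r27 from E18.5 to P5, and 2.51 for Tafa4, 0.84 for Sec14l5 and -0.97 for Ppp1r27 from P5 to the adult.

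Thinned to 1000 UMIs, the share of nuclei with Dqx1 was 0.834% in WT E18.5, 0.0597% in WT P5, 0.0761% in WT adult and 0 in KO. In the order E14.5, E18.5, P5, adult and KO it was 0, 0.513%, 0.657%, 0.66% and 0.103% for Tafa4, 1.35%, 4.88%, 11.6%, 13.6% and 0.308% for Sec14l5, 0.0564%, 1.48%, 3.22%, 0.736% and 0.206% for Ppp1r27, and 0.169%, 1.09%, 0.299%, 0 and 0.206% for Btk.

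With the wider set of junction genes, the log2 ratio of Tafa4 was 2.89 at P5 and 6.72 in the adult, that of Ppp1r27 was -0.10 at E18.5 and -0.24 at P5 (both opposite to the Chrne-positive nuclei), and that of Sec14l5 was 0.04 at P5 (opposite). With at least 5 Myh7 UMIs it was 0.18 for Dqx1 (opposite) and 0.52 for Btk at E18.5 and -1.66 for Sec14l5 at E14.5. With the whole gene and 5 kb to each side as the ATAC window, regions called in WT E18.5 but not in the KO numbered 1 for Tafa4 and 1 for Sec14l5, and regions called in both 2 for Tafa4, 4 for Sec14l5 and 2 for Btk.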
